A study of Homo sapiens with 6 samples.

Results

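The genes described here are 9 members of the natriuretic peptide system: the ligands NPPB, NPPA and NPPC, the receptors NPR1, NPR2 and NPR3, the proteases CORIN and FURIN, and the cGMP-dependent kinase PRKG1. They were taken by name from a table of 33900 genes, and all 9 were found in it. NPPB was chosen by its measured log2 fold change, the largest fall in a restricted ranking. That ranking kept only named genes that passed at an adjusted p of 0.05 and whose groups did not overlap. It also asked for a higher mean level than the test did. Genes outside the ranking were not compared with NPPB. Because NPPB was picked in this way, its difference between the groups is given below as a description without a test. The other 8 genes were selected on their role, with earlier results of these data known. RNA sequencing covered LX-2, an established line of wild-type human hepatic stellate cells (HSCs, the collagen-producing cells of the liver), in 3 samples treated with recombinant human Sema3C (rhSema3C, 300 ng/ml) and 3 samples treated with PBS, each for 48 h. All 6 samples were grown in DMEM with fetal bovine serum, and the whole comparison rests on this single cell line. The sample titles call the replicates biological, and nothing says whether they were separate cultures, so p-values measure only the spread between these samples.

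Natriuretic peptides are small hormones that lower blood pressure and oppose growth and fibrosis in the heart and vessel wall. Atrial natriuretic peptide (from NPPA) and B-type natriuretic peptide (from NPPB) are made mainly by heart muscle and bind NPR1, while C-type natriuretic peptide (from NPPC) acts locally and binds NPR2. NPR1 and NPR2 are membrane guanylate cyclases, and the cGMP they make activates PRKG1. NPR3 lacks a cyclase domain and removes all of the peptides from the surroundings of the cell. The precursors are cut before they act, the NPPA product by corin and the NPPB and NPPC products mainly by furin.

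The ligands share a ring of amino acids closed by a disulphide bridge, through which they bind their receptors. The bases that encode this ring are shown for NPPB, whose values the results turn on, beside those for NPPC, because they bear on whether reads of these genes can be told apart. In the GENCODE transcripts on GRCh38, the ring lies in exon 2 of 3 on the minus strand for both genes, at chr1:11858218-11858268 for NPPB and chr2:231925428-231925478 for NPPC. The sequences below run 5′ to 3′ in the sense of the mRNA, and capitals mark the 37 of 51 bases that are the same in both.
NPPB: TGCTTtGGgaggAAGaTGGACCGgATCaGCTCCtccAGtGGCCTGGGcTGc
NPPC: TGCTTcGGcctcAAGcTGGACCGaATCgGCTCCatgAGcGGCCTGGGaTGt
Over the whole transcripts, the longest identical run between NPPB and NPPC was 13 bases. The transcripts of NPPA were not compared with either.

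The libraries held between 68267808 and 89245585 counts on genes, of which mitochondrial genes took 4.75% to 5.42% with PBS and 3.73% to 3.93% with rhSema3C. The table held 11 stellate markers, of which 8 averaged 0.5 FPKM or more. By edgeR's quasi-likelihood test 6 of these fell (VIM, COL1A1, COL3A1, TIMP1, TAGLN and ACTA2), LOX rose by 1.05 on the log2 scale and PDGFRB did not pass. Calls were common in this comparison: over the 14178 genes tested 62.3% were called at an adjusted p of 0.05, 30.6% lower and 31.7% higher. DES had at most 12 counts, COL1A2 was at or below 0.144 FPKM, and LRAT, the retinol-storing enzyme of quiescent stellate cells, was at 0 FPKM in 5 of the 6 samples. The summed level of the stellate markers, most of it VIM, was 1442 to 1508 FPKM with PBS and 1119 to 1180 with rhSema3C. Of 5 hepatocyte markers ALB was at 0 in 5 samples and SERPINA1 alone averaged 0.5 FPKM or more, and it rose by 0.37 on the log2 scale (summed level of the list 2.62 to 3.16 FPKM with PBS and 3.52 to 4.15 with rhSema3C). Of 6 leukocyte markers PTPRC was at or below 0.014 FPKM and CD14 alone averaged 0.5 FPKM or more, and it fell by 0.81 on the log2 scale (summed level 5.24 to 6.24 FPKM and 3.64 to 4.18). Of 6 endothelial markers KDR and TEK averaged 0.5 FPKM or more and neither passed, while VWF was at 0.090 to 0.12 FPKM with PBS and 0.542 to 0.760 with rhSema3C (summed level 1.474 to 1.959 FPKM and 1.976 to 2.355), and of 4 bile duct markers KRT7 did not pass and SOX9 fell by 0.97 on the log2 scale (summed level 12.4 to 14.7 FPKM and 8.60 to 9.31). Heart muscle markers matter because NPPB and NPPA are known as heart genes. Of 5 such markers MYH6, MYH7 and TNNI3 were at or below 0.060 FPKM in every sample, and RYR2 ranged from 0.087 to 0.130 FPKM with PBS and from 0.053 to 0.075 with rhSema3C. ACTN2 was the only one to average 0.5 FPKM or more, with 0.871 to 1.02 FPKM against 1.70 to 2.18. It rose by 0.86 on the log2 scale. ACTN2 made up most of the summed level of 0.982 to 1.18 FPKM with PBS and 1.81 to 2.32 with rhSema3C. The part of these markers and of the mitochondrial share in the results was not tested. In such bulk samples, fewer cells that make an mRNA and less mRNA per cell cannot be told apart.

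NPPB (ENSG00000120937, chromosome 1 from 11857464 to 11858945, minus strand, GRCh38) had 234, 188 and 218 counts in PBS replicates 1, 2 and 3. In rhSema3C replicates 1, 2 and 3 it had 5, 17 and 30 counts. All rhSema3C samples thus lay far below all PBS samples. As CPM, counts scaled to one common library size after TMM normalisation so that samples can be compared, NPPB stood at 2.73, 2.70 and 3.31 with PBS and at 0.058, 0.186 and 0.360 with rhSema3C. The means were 2.92 ± 0.346 and 0.201 ± 0.152 CPM (mean ± SD, n = 3 in each group), so the mRNA kept 6.91% of its PBS level, 14.5-fold lower. Its fitted log2 fold change was -3.85. The next fall in the restricted ranking was that of the keratin-associated protein gene KRTAP2-3, with -3.30. No other gene of GENCODE overlapped NPPB.

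The counts of NPPB left in the treated samples were low. The exact 95% Poisson interval of the count ran from 1.62 to 11.7 in rhSema3C replicate 1 and from 20.2 to 42.8 in rhSema3C replicate 3. Such intervals cover counting error only. Without rhSema3C replicate 3 the log2 fold change was -4.55, and without rhSema3C replicate 1 it was -3.42. Leaving out replicate 3 thus moved the fold by over 1.5 times, and its direction held without any single sample. Among the PBS samples NPPB stayed between 2.70 and 3.31 CPM.

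**Figure D1:**
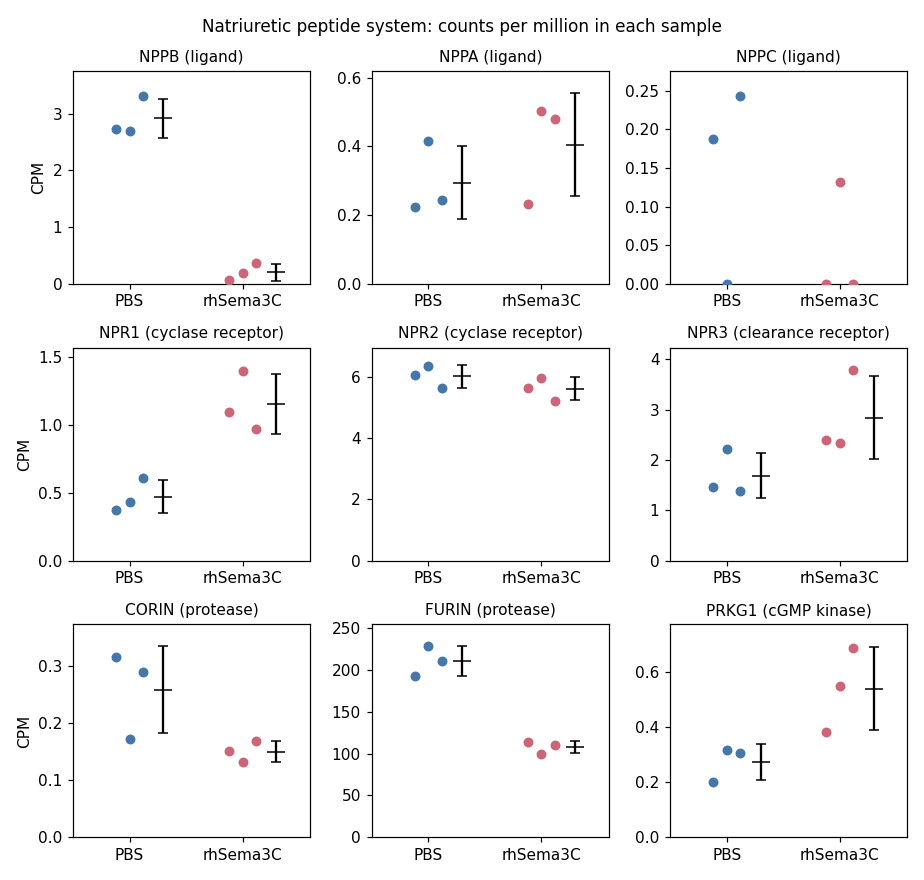
CPM (TMM-normalised) of the 9 genes in each sample, 1 panel per gene with its own axis from 0; points are samples in replicate order, and black bars give the mean ± SD (n = 3; none drawn for NPPC, which has samples at 0). NPPB falls from about 2.92 to 0.201 CPM, FURIN falls from 210.5 to 107.9, NPR1 and NPR3 lie higher with rhSema3C, and NPR2 overlaps between the groups.

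The other 2 ligands were scarce. NPPA (ENSG00000175206, chromosome 1 from 11845709 to 11847783), a neighbour of NPPB on the same strand, had 19, 29 and 16 counts with PBS and 20, 46 and 40 with rhSema3C. The groups overlapped, and the log2 fold change of 0.44 (standard error 0.51) did not pass (adjusted p = 0.52, edgeR's quasi-likelihood test over the 20060 genes averaging 10 counts or more, a set chosen after the data were seen because most members are scarce). Its exons overlap those of the chloride transporter gene CLCN6 on the other strand over 286 bases, and CLCN6, at 48.8, 49.3 and 49.2 CPM scaled by library total with PBS, stood at 114.2, 99.7 and 112.9 with rhSema3C. If the counting ignored strand, part of the NPPA counts may belong to CLCN6. NPPC (ENSG00000163273) had 16, 0 and 16 counts with PBS and 0, 12 and 0 with rhSema3C. NPPC was thus listed at 0 in samples of both groups, its mean count was under 10, and no fold change is given.

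FPKM values, which also account for transcript length, allow the ligands to be set against each other within a sample. In the PBS samples the level of NPPB was 20.7, 10.8 and 21.8 times that of NPPA. In the rhSema3C samples the same ratio was 0.396, 0.561 and 1.18. NPPB was therefore the leading ligand mRNA in each PBS sample. In rhSema3C replicates 1 and 2 it lay below NPPA, on 5 and 17 counts of NPPB against 20 and 46 of NPPA. If the counting ignored strand, part of these NPPA counts may belong to CLCN6, so this order is uncertain.

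NPR1 (ENSG00000169418, chromosome 1 from 153678688 to 153693992), the receptor of the NPPA and NPPB peptides, had 32, 30 and 40 counts with PBS. With rhSema3C it had 94, 128 and 81 counts. No treated sample was as low as any control, and the means were 0.471 ± 0.122 and 1.15 ± 0.221 CPM (mean ± SD, n = 3 in each group), a 2.45-fold difference. NPR1 rose by 1.28 on the log2 scale (standard error 0.31; adjusted p = 0.0068 by edgeR's quasi-likelihood test over genes averaging 10 counts or more). Across 15 other settings its log2 fold change stayed between 0.83 and 1.5 and its adjusted p between 0.0039 and 0.038.

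NPR3 (ENSG00000113389, chromosome 5 from 32689070 to 32786826), the clearance receptor, had 126, 154 and 91 counts with PBS and 207, 213 and 316 with rhSema3C. The groups did not overlap, with means of 1.69 ± 0.454 and 2.84 ± 0.825 CPM (mean ± SD, n = 3 in each group). NPR3 rose by 0.73 on the log2 scale (standard error 0.26) and passed narrowly (adjusted p = 0.043 from the same edgeR test). This call rested on the samples and settings used. Without rhSema3C replicate 3, the highest sample, the log2 fold change was 0.47 (adjusted p = 0.19, edgeR), without PBS replicate 1 or 3 the adjusted p was 0.11 and 0.13, with the replicate number as a block it was 0.072, and with every gene in the test it was 0.088.

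NPR2 (ENSG00000159899, chromosome 9 from 35791591 to 35809732), the receptor of the NPPC peptide, had 517, 443 and 370 counts with PBS and 486, 545 and 435 with rhSema3C. The groups overlapped at 6.01 ± 0.367 and 5.61 ± 0.370 CPM (mean ± SD, n = 3 in each group). Its log2 difference of -0.10, with an approximate 95% interval from -0.35 to 0.15, did not pass (adjusted p = 0.51, edgeR's quasi-likelihood test over the 14178 genes averaging 0.5 FPKM or more). Its sign turned with library size alone as the scaling, and on the FPKM and TPM scales. Exons of SPAG8 on the other strand overlap NPR2 over 329 bases, and SPAG8 held between 52 and 99 counts per sample.

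Per transcript length, NPR2 was the leading receptor mRNA in each of the 6 samples. Its FPKM was 18.4, 16.8 and 10.6 times that of NPR1 in the PBS samples and 5.84, 4.78 and 5.99 times that of NPR1 in the rhSema3C samples, so the ratio was lower in every treated sample. Against NPR3 the FPKM of NPR2 was between 6.50 and 9.41 times as high with PBS and between 3.11 and 5.79 times as high with rhSema3C.

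FURIN (ENSG00000140564, chromosome 15 from 90868588 to 90883458), the convertase that cuts many secreted precursors at basic residues, was the most abundant member per transcript length. It stood at 192.6, 228.7 and 210.2 CPM with PBS and at 113.5, 99.9 and 110.3 CPM with rhSema3C. The groups were well apart, and FURIN fell to 51.3% of its PBS mean, or by 0.96 on the log2 scale (standard error 0.07; adjusted p = 3.8e-07 by edgeR's quasi-likelihood test over genes averaging 0.5 FPKM or more). The log2 fold change lay between -1.02 and -0.73 under all 18 other settings in which it was fitted, and it passed in each.

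CORIN (ENSG00000145244, chromosome 4 from 47593999 to 47838106), the membrane protease that activates the NPPA product, had few counts in any sample. It had 27, 12 and 19 counts with PBS and 13, 12 and 14 with rhSema3C. The CPM values of the groups did not overlap, by a small margin, at 0.172 for the lowest PBS sample and 0.168 for the highest rhSema3C sample. The log2 fold change of -0.80 (standard error 0.59) did not pass (adjusted p = 0.30, edgeR's quasi-likelihood test over genes averaging 10 counts or more).

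PRKG1 (ENSG00000185532, chromosome 10 from 50990888 to 52298423), the kinase that relaxes smooth muscle in response to cGMP, had 17, 22 and 20 counts with PBS and 33, 50 and 57 with rhSema3C. The groups did not overlap, at 0.273 ± 0.065 against 0.538 ± 0.151 CPM (mean ± SD, n = 3 in each group). With a log2 fold change of 0.96 (standard error 0.44) it did not pass (adjusted p = 0.10 from the same test). PRKG1-AS1 overlaps its exons on the other strand over 169 bases, and with between 145 and 234 counts per sample it had more counts than PRKG1 in each sample. PRKG1 had the lowest mean FPKM of all members with PBS, 0.0189, and with rhSema3C only NPPC and CORIN were lower.

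**Figure D2:**
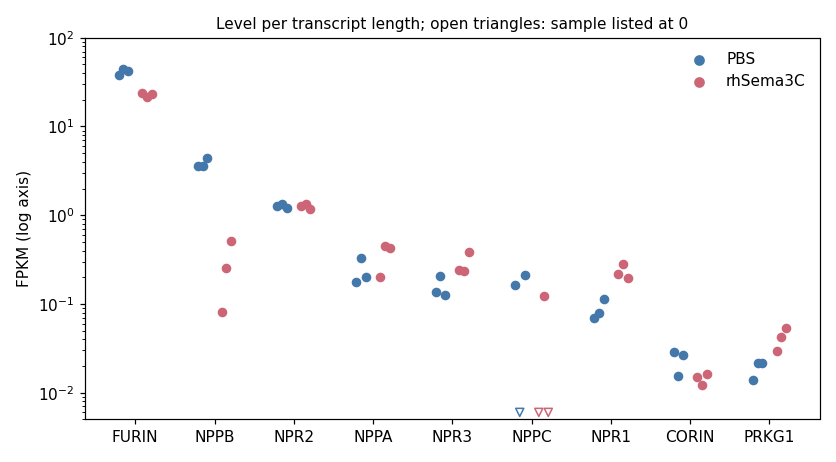
FPKM of the 9 genes in each sample on a log axis, genes ordered by their PBS mean; filled points are samples and open triangles at the lower edge mark samples listed at 0. FURIN is highest in both groups, and NPPB moves from the second place with PBS (mean 3.86 FPKM) to a mean of 0.280 FPKM, among NPPA, NPR3 and NPR1.

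With PBS the order of the mean FPKM was FURIN (41.7), NPPB (3.86), NPR2 (1.27), NPPA (0.235), NPR3 (0.156), NPPC (0.124), NPR1 (0.0873), CORIN (0.0236) and PRKG1. The first 3 were apart from each other and from the rest in every sample, while the ranges of NPPA, NPR3 and NPPC overlapped with their neighbours, as did those of NPPC and NPR1, and of CORIN and PRKG1. With rhSema3C the order was FURIN (23.0), NPR2 (1.27), NPPA (0.360), NPR3 (0.285), NPPB (0.280), NPR1 (0.233), PRKG1 (0.0415), NPPC (0.0407) and CORIN (0.0144). From NPPA to NPR1 the ranges of neighbours overlapped, so NPPB had no distinct place there.

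Of the 8 members other than NPPB, 2 passed the filter of a mean FPKM of at least 0.5 (FURIN and NPR2), and 7 had a mean of at least 10 counts. Among the 2, FURIN was lower, where 62.3% of the 14178 genes tested were called, 30.6% lower and 31.7% higher, at an adjusted p of 0.05. FURIN was also the one of the 2 whose groups did not overlap, as 33.3% of the genes tested were apart and lower and 34.6% apart and higher. Among the 7, NPR1 and NPR3 were higher and FURIN was lower, and 4 did not pass. Over the 20060 genes of that test, 23.4% were higher and 23.1% lower, so a call was common in this comparison and the share of members called, 3 of 7, was near the 46.4% over all genes. In 5 of the 7 the groups did not overlap in CPM (NPR1, NPR3 and PRKG1 higher, CORIN and FURIN lower), where 30.1% of the genes were apart and higher and 26.3% apart and lower. For CORIN the gap was small and rests on the TMM scaling. An exact permutation test of a single gene cannot go below p = 0.1 with 3 samples against 3. Groups that are apart always give that value, so the test adds nothing for these 5 genes. The same permutation test gave p = 0.3 for NPPA and NPR2 and p = 0.4 for NPPC.

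The balance of calls over all genes moved with the scaling, from 4490 genes higher and 4339 lower as reported to 5654 and 3415 with library size alone. With limma on log2(TPM + 1), which changes the test and the transformation as well as the scaling, it was 6934 and 2428. Library size alone moved the median over these genes from 0.02 to 0.13 on the log2 scale. The directions of NPPB, FURIN, NPR1, NPR3, NPPA, CORIN and PRKG1 were the same under the scalings tried, and only that of NPR2 turned.

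**Figure D3:**
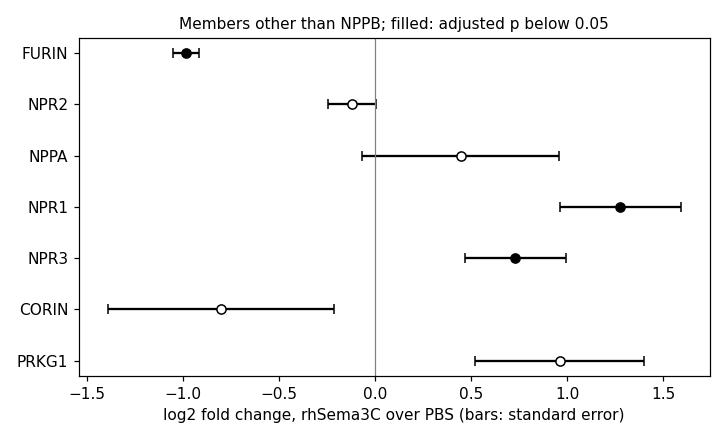
Log2 fold change of rhSema3C over PBS for the 7 members other than NPPB with a mean of at least 10 counts, with standard errors, by edgeR's quasi-likelihood fit over 20060 genes; filled points have an adjusted p below 0.05. FURIN lies at -0.98, NPR1 at 1.28 and NPR3 at 0.73, while NPR2, NPPA, CORIN and PRKG1 did not pass.

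The wider cGMP pathway was then read from the fit over genes averaging 0.5 FPKM or more. Of 11 other guanylate cyclases, peptide ligands and nitric oxide synthases, 2 could be tested. GUCY1B1, the beta subunit of the soluble guanylate cyclase that senses nitric oxide, rose, and NOS3, the endothelial nitric oxide synthase, did not pass (log2 fold change -0.16, median of both 0.39). Over all genes tested 62.3% were called, 31.7% higher, and the median was 0.02. Over genes averaging 10 counts or more, 3 of the list were tested, and their median was -0.18 beside 0.04 over all genes. GUCY1B1 stood at 7.35, 6.23 and 5.14 CPM with PBS and at 10.8, 13.7 and 11.2 CPM with rhSema3C, a difference of 0.93 on the log2 scale (standard error 0.15; adjusted p = 0.00024 by edgeR's quasi-likelihood test). The alpha subunits with which it pairs were scarce, with at most 11 counts per sample for GUCY1A1 and at most 16 for GUCY1A2.

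Of 16 phosphodiesterase genes of the families that hydrolyse cGMP, 5 were tested, and 3 rose, each by less than 1.5-fold. Over all genes tested 62.3% were called, 31.7% higher and 30.6% lower, so 3 of 5 is near the background. PDE10A had a log2 fold change of 0.38, PDE6D, which is a chaperone of prenylated proteins and no hydrolase, of 0.27 and PDE2A, which cGMP itself stimulates, of 0.21. The call of PDE2A was lost without rhSema3C replicate 1 (log2 fold change 0.15, adjusted p = 0.056, edgeR). PDE5A, the target of sildenafil, had a log2 fold change of -0.31 and did not pass (adjusted p = 0.10 by edgeR's quasi-likelihood test). PDE5A shares 542 exonic bases with an unnamed gene on the other strand, which had at least as many counts in every sample. The median log2 fold change of the 5 was 0.21, beside 0.02 over all genes tested. Over genes averaging 10 counts or more, 10 of the list were tested, 3 rose and 1 fell, where 46.4% of all genes were called. The gene that fell was PDE1B, by 0.59 on the log2 scale (adjusted p = 0.013, edgeR).

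Among 14 effectors and substrates of cGMP and its kinases, 5 were tested, 2 rose and 1 fell, which is again near the 62.3% called over all genes. VASP, an actin regulator and classical substrate of the kinase, was 134.9, 134.7 and 125.1 CPM with PBS and 84.8, 82.6 and 86.1 CPM with rhSema3C, a fall by 0.64 on the log2 scale (standard error 0.04; adjusted p = 4.4e-07, edgeR). RGS2, which dampens signalling of Gq-coupled receptors, rose by 0.92 on the log2 scale, with 2.86 ± 0.503 against 5.42 ± 0.773 CPM (mean ± SD, n = 3 in each group). PPP1R12A, the targeting subunit of myosin phosphatase, rose by 0.28 on the log2 scale. The median over the 5 was 0.08.

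Of 14 peptidases, convertases and modifiers, 6 were tested, 3 rose and 2 fell, beside 31.7% higher and 30.6% lower over all genes tested. MME encodes neprilysin, the membrane peptidase that breaks down natriuretic peptides, and stood at 351.1, 309.6 and 338.6 CPM with PBS. With rhSema3C it stood at 556.7, 660.1 and 604.5 CPM, and every treated sample was above every control. MME rose by 0.87 on the log2 scale (standard error 0.07; adjusted p = 7.5e-07 by edgeR's quasi-likelihood test). IDE, the insulin-degrading enzyme, rose by 0.33, and the convertase PCSK4 rose, with 2.51 ± 0.361 against 5.01 ± 0.305 CPM (mean ± SD, n = 3 in each group).

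The convertase PCSK7 fell by 0.73 on the log2 scale, with 119.2 ± 5.11 against 72.1 ± 2.86 CPM (mean ± SD, n = 3 in each group), so both FURIN and PCSK7 had lower values in every treated sample. PCSK7 shares 446 exonic bases with TAGLN on the other strand, and TAGLN itself had a log2 fold change of -2.70, so the PCSK7 value is uncertain if the counting ignored strand. FAP, a peptidase of activated stromal cells, fell by 0.59 on the log2 scale. The median log2 fold change over the 6 genes was 0.25.

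**Figure D4:**
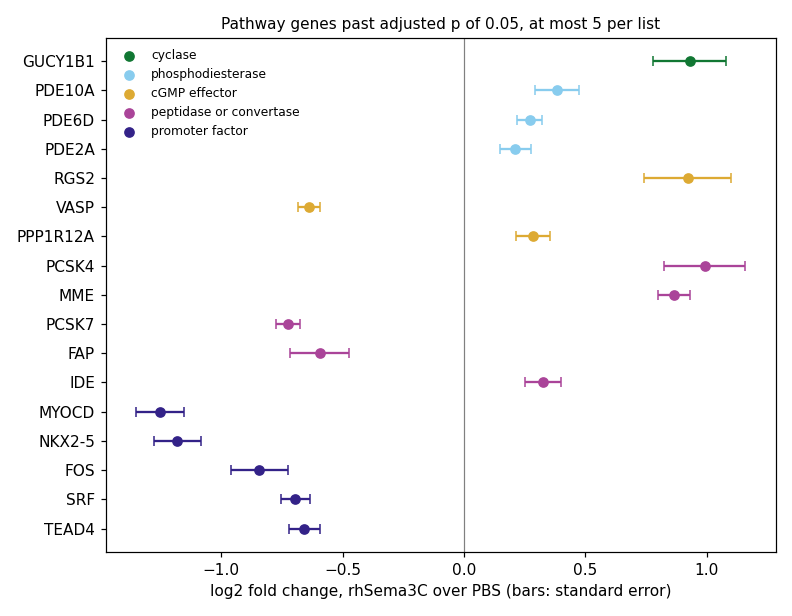
Log2 fold change of rhSema3C over PBS, with standard errors, for the genes of the 5 pathway lists past an adjusted p of 0.05 (edgeR over genes averaging 0.5 FPKM or more, at most the 5 with the largest change per list), coloured by list. GUCY1B1, RGS2, PCSK4 and MME lie between 0.87 and 0.99, and MYOCD and NKX2-5 are lowest at -1.25 and -1.18.

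Transcription factors and coactivators known for the promoters of the natriuretic peptide genes were the list with most genes tested, 20 of 26. Of these, 9 fell, 5 rose and 6 did not pass, beside 30.6% lower, 31.7% higher and 62.3% called over all genes tested, with a median log2 fold change of -0.06 beside 0.02 over all genes tested. Over genes averaging 10 counts or more, 24 of the list were tested, 10 fell and 4 rose, beside 23.1% lower and 23.4% higher over all genes. In that fit NFATC2 fell by 1.10 on the log2 scale (adjusted p = 0.00026, edgeR). MYOCD, the coactivator of SRF in heart and smooth muscle, stood at 16.2, 15.7 and 17.5 CPM with PBS and at 6.86, 7.31 and 6.56 CPM with rhSema3C. It fell by 1.25 on the log2 scale (standard error 0.10; adjusted p = 1.1e-06 by edgeR's quasi-likelihood test). NKX2-5, a homeobox factor of the developing heart, stood at 21.9, 22.6 and 21.4 CPM with PBS and at 8.63, 10.6 and 9.83 CPM with rhSema3C, and fell by 1.18 on the log2 scale (standard error 0.10). The groups were far apart for both genes.

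The 5 factors that rose over genes averaging 0.5 FPKM or more were HAND2, MEF2A, MRTFB, TEAD1 and REST. HAND2, a basic helix-loop-helix factor of the developing heart, stood at 4.2, 3.16 and 3.95 CPM with PBS and at 5.24, 5.52 and 6.42 CPM with rhSema3C, and rose by 0.60 on the log2 scale (standard error 0.16; adjusted p = 0.0063 by edgeR's quasi-likelihood test). HAND2-AS1 overlaps its exons on the other strand over 867 bases and had 298 to 352 counts with PBS and 417 to 495 with rhSema3C. MEF2A, a MADS-box factor of muscle, stood at 23.8 ± 1.72 against 35.6 ± 1.18 CPM (mean ± SD, n = 3 in each group) and rose by 0.59 on the log2 scale (standard error 0.07; adjusted p = 3.3e-05, edgeR). MEF2A shares 770 exonic bases with LYSMD4 on the other strand, which had 474 to 747 counts per sample. REST, a repressor of neuronal genes, rose by 0.20 on the log2 scale, and over genes averaging 10 counts or more it did not pass (adjusted p = 0.059, edgeR).

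SRF itself, the factor that binds CArG boxes, fell by 0.69 on the log2 scale, with 108.5 ± 8.55 against 67.0 ± 2.41 CPM (mean ± SD, n = 3 in each group). TEAD4, a factor that binds M-CAT elements, fell by 0.66 on the log2 scale, and FOS, an AP-1 subunit, fell by 0.84. JUN, another AP-1 subunit, fell by 0.35 on the log2 scale, from a higher level (CPM mean 351.1 with PBS, against 20.7 for FOS). The genes of the SRF and TEAD groups did not move as a block. MRTFB rose by 0.26 and MRTFA fell by 0.21, TEAD1 rose by 0.26, while TEAD2 and TEAD3 fell by 0.33 and 0.43 on the log2 scale. YAP1, WWTR1 and GATA4 did not pass, with log2 fold changes of -0.02, -0.03 and -0.10. MYOCD shares 704 exonic bases with an unnamed gene on the other strand, which had at most 8 counts per sample.

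The profile of NPPB over the 6 samples was last set against those of 14176 other genes tested, by the Euclidean distance between log2(CPM + 1) values centred on each gene's mean. The 5 nearest were TXNRD2 (mitochondrial thioredoxin reductase, distance 0.301), TGM2 (tissue transglutaminase, 0.335), MARCHF4 (a membrane ubiquitin ligase, 0.350), the histone gene H4C8 (0.354) and MYO7B (an unconventional myosin, 0.366). NPPB itself was low, so the added 1 compressed its fold, and the 5 genes had smaller falls in the fit, with log2 fold changes between -1.99 and -1.55. TXNRD2 stood at 142.5, 138.0 and 144.0 CPM with PBS and at 40.8, 44.5 and 41.5 CPM with rhSema3C. These genes were found by their likeness to a gene picked for its fall, and the distance is a description.

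**Figure D5:**
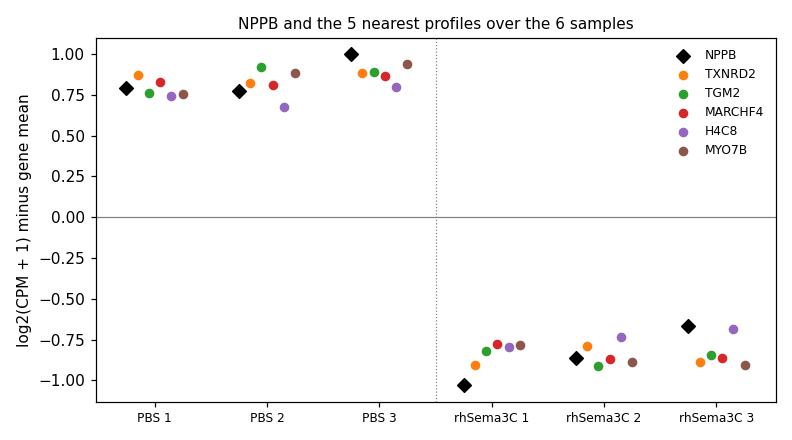
Centred log2(CPM + 1) of NPPB (black diamonds) and the 5 genes with the nearest profiles, for each of the 6 samples; the horizontal line is each gene's own mean. In PBS samples all 6 genes lie above their mean and in rhSema3C samples below it, and NPPB spreads more over the rhSema3C samples than the others do.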

How the data were processed

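For each sample the authors deposited raw gene counts in whole numbers. The FPKM values beside them were scaled by the authors to length and depth. Per the labels and the paper's methods, RNA was extracted with TRIzol, made into SMARTER mRNA-seq libraries and sequenced on an Illumina NovaSeq instrument, and the Cufflinks package served for the authors' own comparison. The aligner, counter, strand setting and build are not given in the sources used here. The table's coordinates lie on GRCh38, with 60.1% of the genes shared with GENCODE identical in both bounds.

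Counts were tested with edgeR 4.0.16 (TMM factors, quasi-likelihood F-test, R 4.3.3) over genes averaging 0.5 FPKM or more, with Benjamini-Hochberg adjustment over all of them. Since 5 members with enough counts fell under this filter, a fit over genes averaging 10 counts or more was added after the data were seen. Standard errors are the log2 fold change over the square root of F, and 95% intervals use the normal quantile. DESeq2 1.42.0 and limma 3.58.1 served as alternatives, and the scripts were tested on simulated counts. CPM in the text use the TMM factors of the first fit, 0.958 to 1.04. Replicates of a group differed by more than counting noise (chi-square per degree of freedom 12.6 to 20.4).

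The members and lists were chosen with earlier results of these data known. Named genes are the members, up to 5 genes past the threshold per list by size of change, the 5 nearest profiles and marker genes. NOS3, PDE5A, PDE1B, GUCY1A1, GUCY1A2, CLCN6, SPAG8, PRKG1-AS1, KRTAP2-3, HAND2, HAND2-AS1, MEF2A, LYSMD4, REST, NFATC2, MRTFA, MRTFB, TEAD1, TEAD2, TEAD3, YAP1, WWTR1, GATA4 and JUN fall outside this rule and were named after their values were seen. Ring sequences came from GENCODE 29 transcripts. The RefSeq promoter table, not printed here, held 8 of the 9 members, and NPPB was not among them. Genes of the lists without a row in the table were not analysed here.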

Additional observations from a re-analysis of the deposited data

How the results depend on the processing

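Of 18 alternatives for FURIN and 15 for NPR1, none changed the direction or the call, and the same held for 16 of the 17 pathway genes charted, with PDE2A as the exception. The log2 fold change of NPPB was -1.93 with limma on log2(FPKM + 1) and -2.87 on log2(TPM + 1), where the added 1 compresses low values by construction, and stayed between -4.57 and -3.42 with each sample left out of either fit. The number of members other than NPPB that were higher was 0 over genes averaging 0.5 FPKM or more, and 0 with each sample left out. It was 1 with no filter and 2 for genes averaging 0.1 FPKM or more, since more members were tested. It was 2 over genes averaging 10 counts or more, and there also 2 with median-of-ratios scaling, library size alone, DESeq2, a prior count of 2 or log2(TPM + 0.1), 1 with log2(FPKM + 0.1), and between 1 and 2 with each sample left out. The number lower was 1 throughout. NPR3 lost its call under 6 of 15 alternatives and PDE2A under 2 of 18, with every direction kept.

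NPR2 turned to 0.0094 with library size alone, 0.0014 with limma on log2(FPKM + 1), 0.0021 on log2(FPKM + 0.1) and 0.10 on log2(TPM + 1), and passed in none. Over genes averaging 5 FPKM or more, 2630 genes were higher and 2602 lower, and 8 and 7 of the pathway genes, since fewer genes were tested. With log2(TPM + 1), over genes averaging 0.5 FPKM or more, the counts over all genes were 6934 and 2428. Over genes averaging 10 counts or more, log2(TPM + 0.1) gave 7655 and 2491 in place of 4691 and 4626. In that set 22 pathway genes were higher in place of 13. The cause was not tested.

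No pairing of the samples by replicate number was visible (correlations of the deviations of same-numbered samples from -0.027 to 0.058). Such correlations cannot show that the samples were unpaired. With the replicate block, 4221 genes were higher and 4120 lower, and over genes averaging 10 counts or more 1 member was higher, NPR3 having lost its call. The log2 fold change of NPPB was -4.00 with the block.

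NPPC, CORIN and NPPA had the lowest mean counts, with at most 46 counts per sample, and PRKG1 had between 17 and 57. Whether depth or the spread between samples kept CORIN, NPPA and PRKG1 from passing was not tested.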
